A study of Homo sapiens with 4 samples.

Results

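The 41 genes described here build the machinery that licenses replication origins and copies DNA: the MCM helicase, the origin-binding and licensing factors, the factors that activate the helicase, the primase and polymerases, the sliding clamp and its loader, the proteins that bind single strands and join Okazaki fragments, and enzymes that supply deoxynucleotides. They were chosen by function from general knowledge, with all probes of each gene taken, and not by a measured value in these arrays. Earlier results of these data were known when the genes were listed. All 41 had a probe among the 19550 genes tested, and their 51 probes were well above background on all 4 arrays. They were measured in Ca9-22, an established human line derived from squamous carcinoma of the gum, in 2 negative control cultures and 2 cultures in which KPNA4 was silenced. KPNA4 encodes an importin alpha, an adaptor that carries proteins with a nuclear localization signal into the nucleus. The labels describe an siRNA transfection with harvest at day 3, whereas the study's text describes short hairpin RNAs, and the cells were otherwise grown alike in serum-containing medium. RNA from each culture was read on its own 1-color Agilent array covering the whole human genome, and the series' design text calls the 2 cultures of a condition biological replicates.

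Before S phase the origin recognition complex, CDC6 and CDT1 load MCM rings onto DNA, and geminin, the product of GMNN, blocks CDT1 once replication has begun. The kinase CDC7 with its activator DBF4, together with cyclin-dependent kinases, then lets CDC45 and the GINS complex join the ring to form the working helicase, after which DNA polymerase α-primase starts strands that polymerases ε and δ extend. Many of these genes are transcribed under E2F factors as cells pass from G1 into S, so their summed transcript level is widely read as a sign of proliferation.

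KPNA4 itself, at log2 signals of 4.02 and 4.03 in controls, stood at 2.36 and 2.05 in knockdown (log2 fold change -1.82 with standard error 0.12, limma adjusted p = 0.00183). Here and throughout, a log2 signal is that of the processed probe intensity relative to the 75th percentile of its array, a fold change is knockdown over control, and a gene is called where limma's Benjamini-Hochberg adjusted p over all genes was under 0.05. Controls had that percentile at 1466 and 1381 intensity units against 1938 and 2096 in knockdown, and 70.2% to 71.0% of probes were well above background. Across genes the Pearson correlation was 0.998 within each group and 0.979 between control 1 and knockdown 1. All 13 squamous markers were well above background on all arrays, and their summed signal, in units of the 75th percentile, was 321 and 319.6 in controls against 288 and 278 in knockdown. The fall of that sum lay in bright members (SFN, ITGB4 and EPCAM, the 3 called lower), while 8 of the 13 were called higher, KRT6A by 6.94 on the log2 scale, and their median log2 fold change was 1.00. The fibroblast markers summed to 0.143 and 0.147 against 0.330 and 0.345 with COL3A1 not well above background on any array and LUM so only on the control arrays, and the 3 endothelial markers to 0.087 and 0.093 against 0.066 and 0.062 with PECAM1 not well above background. The part of these cells' markers in the results below was not tested. HLA-DRB5 and GSTM1, genes that not every human genome carries, did not stand well above background in the controls, did so on both knockdown arrays, and were at least 5.90-fold and 1.59-fold higher there, so the knockdown and a difference in the identity of the cultures cannot be told apart. In bulk RNA, fewer cells in S phase and less RNA of these genes per cell cannot be told apart either.

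After KPNA4 knockdown 15 of the 41 replication genes were lower and 4 were higher, and 22 were not called. The lower genes were MCM5, CDT1, GMNN, CDC45, DBF4, POLA2, PRIM1, POLD1, POLD3, RPA1, RPA2, FEN1, LIG1, RRM2 and TYMS, and the higher ones CDC6, GINS1, CDC7 and POLE. The called genes made up 36.6% of the 41 for lower and 9.76% for higher, beside 29.5% and 20.3% of all genes tested, and 19 of the 41 were called in either direction beside 49.8% of all genes. The median log2 fold change was -0.077 over the 41 genes and -0.10 over all genes, so the replication genes lay 0.025 above the arrays as a whole. The changes were small, from -0.60 for CDT1 to 0.61 for GINS1, and 0 of the 41 were at least 2-fold apart, beside 8.90% of all genes. In 20 genes both knockdown arrays lay below both control arrays and in 13 they lay above, beside 48.1% and 31.7% of all genes, and in the other 8 the groups overlapped. For each of the 22 genes that were not called, the 95% interval of the log2 fold change lay within -0.5 and 0.5. This bounds the change only under the scaling used for these calls and does not show that it was 0. Some of the 22 lay above 0.5 without scaling, such as MCM10 (0.77) and POLE2 (0.71), and others did not, such as MCM2 (0.26).

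**Figure D1:**
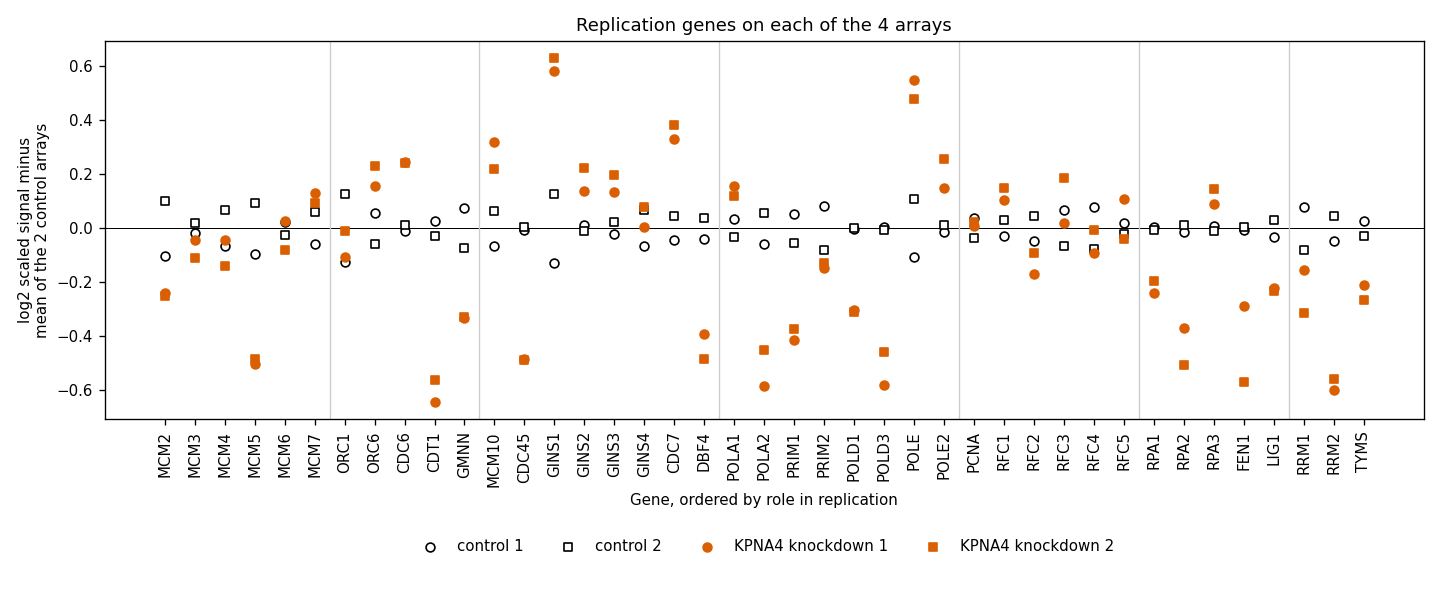
Log2 signal of each of the 41 replication genes on the 4 arrays, relative to that gene's control mean, with genes grouped by role. Knockdown arrays of the 15 lower genes sit below both control arrays and those of the 4 higher genes above. The 6 clamp and clamp loader genes lie around 0, the control mean, while the median log2 fold change of all genes is -0.10. The calls were made from these same values.

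Calls depended on single arrays and on the scaling. Leaving out any 1 array left a group with 1 array. The median log2 fold change of the replication genes then ran from -0.096 to -0.058. Of the 15 lower genes CDT1, CDC45, POLD3 and RRM2 were called whichever array was left out, and none of the 4 higher ones was. Counts from these fits, for the replication genes and for all genes, stand together under the processing alternatives. Quantile normalization gave 11 lower and 9 higher, beside 25% and 22.3% of all genes, and median scaling 15 and 5, beside 32% and 19%. Without any scaling, where the median over all genes moved to 0.40, it was 0 lower and 24 higher, beside 5.36% and 57.6% of all genes. The 75th percentile, median and no scaling differ by a constant per array, so a gene's distance from the median of all genes is the same under each. The 15 lower genes lay below that median and the 4 higher ones above it. With the 75th percentile the median was below 0, so any gene called higher must lie above it. With quantile normalization 14 of the 15 lay below, RPA1 being 0.0097 above, and all 4 above. These positions come from the values that gave the calls and are no separate support for them.

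**Figure D2:**
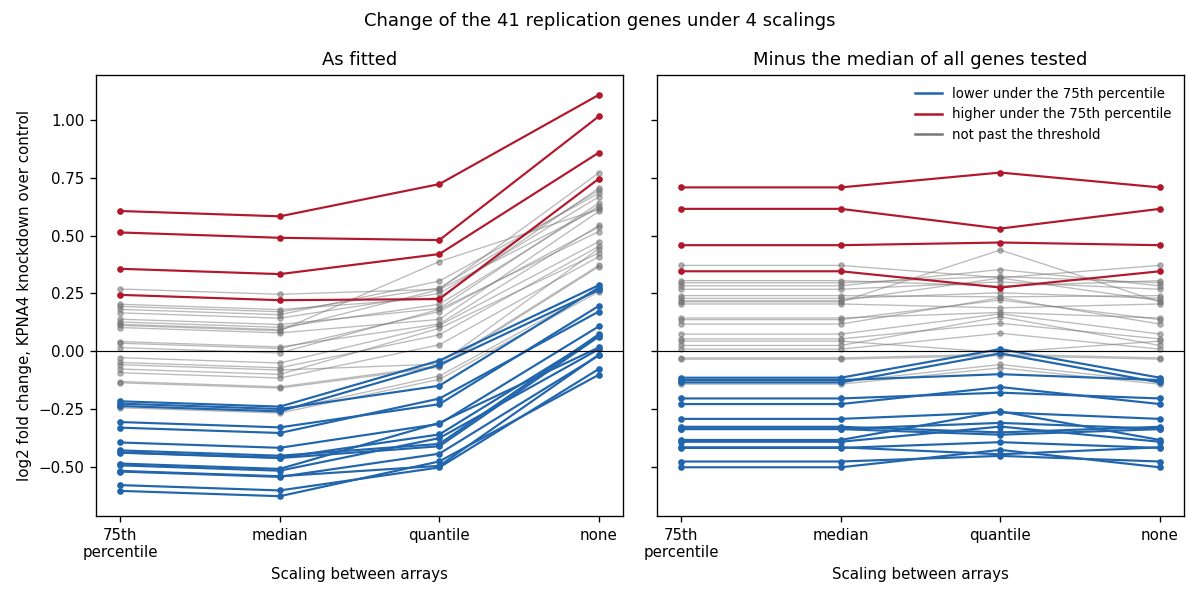
Log2 fold change of the 41 replication genes minus the median over all genes tested under 4 scalings of the arrays, beside the fold changes before that subtraction. After the subtraction the 75th percentile, median and no scaling give equal values and quantile normalization moves some genes, with all-gene medians of -0.10, -0.050, -0.13 and 0.40 for the 75th percentile, quantile, median and no scaling.

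Promoters were read for the 35 members with an entry in a RefSeq table of GRCh38.p14 (none for MCM4, MCM5, GINS4, POLD3, RPA2 and RPA3), over the 250 bases upstream of the start. The E2F words searched on both strands were TTGGCGC and its versions written with CC, GC or CG in place of GG. Such a word stood in 18 of the 35 members and in 3009 of the 27305 promoters of the whole table. A word was present in 6 of 12 lower genes, 2 of 4 higher ones and 10 of 19 not called. The CCAAT word, bound by NF-Y, stood in 54.3% of the members and 33.0% of all promoters, with 4 of 12 lower, 3 of 4 higher and 12 of 19 not called, and the CHR word TTTGAA in 2.9% against 13.6%. The promoters of the 2 called genes with an entry that fell furthest and of the 2 that rose furthest are printed 5′ to 3′ on the strand of the gene, with E2F words and CCAAT words, or their reverse complements, in capitals. CDT1 lies at chr16:88803539-88803788 on the plus strand, RRM2 at chr2:10122489-10122738 on the plus strand, GINS1 at chr20:25407423-25407672 on the plus strand and POLE at chr12:132687343-132687592 on the minus strand.
CDT1: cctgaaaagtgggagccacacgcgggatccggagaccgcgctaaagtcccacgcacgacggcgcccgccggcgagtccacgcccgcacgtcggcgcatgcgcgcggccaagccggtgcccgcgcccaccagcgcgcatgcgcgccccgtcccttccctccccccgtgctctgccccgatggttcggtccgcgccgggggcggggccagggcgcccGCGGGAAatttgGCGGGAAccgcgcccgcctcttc
RRM2: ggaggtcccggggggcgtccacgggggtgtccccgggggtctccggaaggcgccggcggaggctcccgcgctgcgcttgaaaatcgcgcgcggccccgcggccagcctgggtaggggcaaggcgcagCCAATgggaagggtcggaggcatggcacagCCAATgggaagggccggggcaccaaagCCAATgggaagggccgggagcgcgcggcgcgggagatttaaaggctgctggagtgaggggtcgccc
GINS1: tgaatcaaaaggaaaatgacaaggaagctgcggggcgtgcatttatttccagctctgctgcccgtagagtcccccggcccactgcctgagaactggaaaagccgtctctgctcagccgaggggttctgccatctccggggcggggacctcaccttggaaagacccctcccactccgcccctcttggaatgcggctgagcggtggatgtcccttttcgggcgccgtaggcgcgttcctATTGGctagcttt
POLE: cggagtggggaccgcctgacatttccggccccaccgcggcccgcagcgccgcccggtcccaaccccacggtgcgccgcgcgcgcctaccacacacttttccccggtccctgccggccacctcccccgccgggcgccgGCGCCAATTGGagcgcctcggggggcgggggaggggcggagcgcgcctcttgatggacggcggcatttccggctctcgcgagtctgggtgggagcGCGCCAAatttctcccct
CDT1 carries 2 E2F words, 35 and 23 bases upstream of the start, and no CCAAT word. RRM2 carries 3 CCAAT words 123, 93 and 66 bases upstream and no E2F word. Of the rising pair, GINS1 has 1 CCAAT word in reverse 13 bases upstream, and POLE has E2F words 113 and 18 bases upstream. The first of these overlaps 2 CCAAT words, 110 bases upstream and, in reverse, 107 bases upstream. A word in a window is a description of the letters, and binding was not measured here.

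The licensing step showed its largest change in the loader CDT1. Its log2 signals were 4.40 and 4.34 in controls and 3.72 and 3.80 in knockdown, and it fell by 34.2% (log2 fold change -0.60, 95% interval -0.78 to -0.43, limma adjusted p = 0.00494). Its inhibitor geminin went the same way, with GMNN at 4.09 and 3.95 in controls and 3.69 on both knockdown arrays (-0.33, standard error 0.08, limma adjusted p = 0.0287). Both genes had both knockdown arrays below both controls, as 48.1% of all genes did. CDC6, the ATPase that works with CDT1 to load MCM rings, instead rose from -2.09 and -2.06 to -1.83 on both knockdown arrays, by 18.4% (limma adjusted p = 0.0279). The origin-binding subunits were not called: ORC1 was at -0.80, -0.55, -0.78 and -0.68 with overlapping groups, and ORC6 at 1.95, 1.84, 2.05 and 2.13 with both knockdown arrays above (log2 fold change 0.19, limma adjusted p = 0.0910). Quantile normalization lost the GMNN call and called ORC6 higher. That made 1 lower and 2 higher of these 5 genes, beside 25% and 22.3% of all genes. Without scaling 0 were lower and 3 higher, beside 5.36% and 57.6%.

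Of the 6 MCM ring subunits MCM5 was lower and 5 were not called, beside 29.5% lower and 20.3% higher of all genes. Quantile normalization also called MCM7 higher. Without scaling 0 were lower and 4 higher, beside 5.36% and 57.6% of all genes. MCM5 was at 3.59 and 3.78 in controls and at 3.18 and 3.20 in knockdown. It fell by 29.0% (log2 fold change -0.49, standard error 0.09, limma adjusted p = 0.0148), and its other probe gave -0.34 (adjusted p = 0.0369 over probes). MCM2 lay lower on both knockdown arrays, at 3.85 and 4.05 against 3.71 and 3.70, without passing (-0.24, 95% interval -0.49 to 0.00, limma adjusted p = 0.0878). MCM3, MCM4, MCM6 and MCM7 had log2 fold changes of -0.077, -0.093, -0.028 and 0.11. A difference between subunits was not tested.

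Helicase activation held opposite changes within pairs of partners. CDC45, which joins the MCM ring to GINS, was at 5.37 and 5.38 in controls and 4.89 on both knockdown arrays and fell by 28.6% (log2 fold change -0.49, limma adjusted p = 0.00555). GINS1 rose by 52.3%, from 2.95 and 3.20 to 3.66 and 3.71 (0.61, 95% interval 0.31 to 0.90, limma adjusted p = 0.0149). These were called changes in opposite directions for subunits of 1 complex. The other GINS genes were not called, with GINS2 at 0.18, GINS3 at 0.17 and GINS4 at 0.042. The kinase CDC7 rose from 1.57 and 1.66 to 1.95 and 2.00 (0.36, limma adjusted p = 0.0169), while its activating subunit DBF4 fell from 0.94 and 1.02 to 0.59 and 0.49 (-0.44, limma adjusted p = 0.0119), although the second, dim DBF4 probe did not pass (-0.26, adjusted p = 0.259 over probes). MCM10, a scaffold at the activated helicase, was at -0.88 and -0.75 in controls and -0.49 and -0.59 in knockdown and just missed the threshold (0.27, limma adjusted p = 0.0523). Quantile normalization also called GINS2 and GINS3 higher, for 2 lower and 4 higher of these 8 genes, beside 25% and 22.3% of all genes. Without scaling 0 were lower and 6 higher, beside 5.36% and 57.6%.

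**Figure D3:**
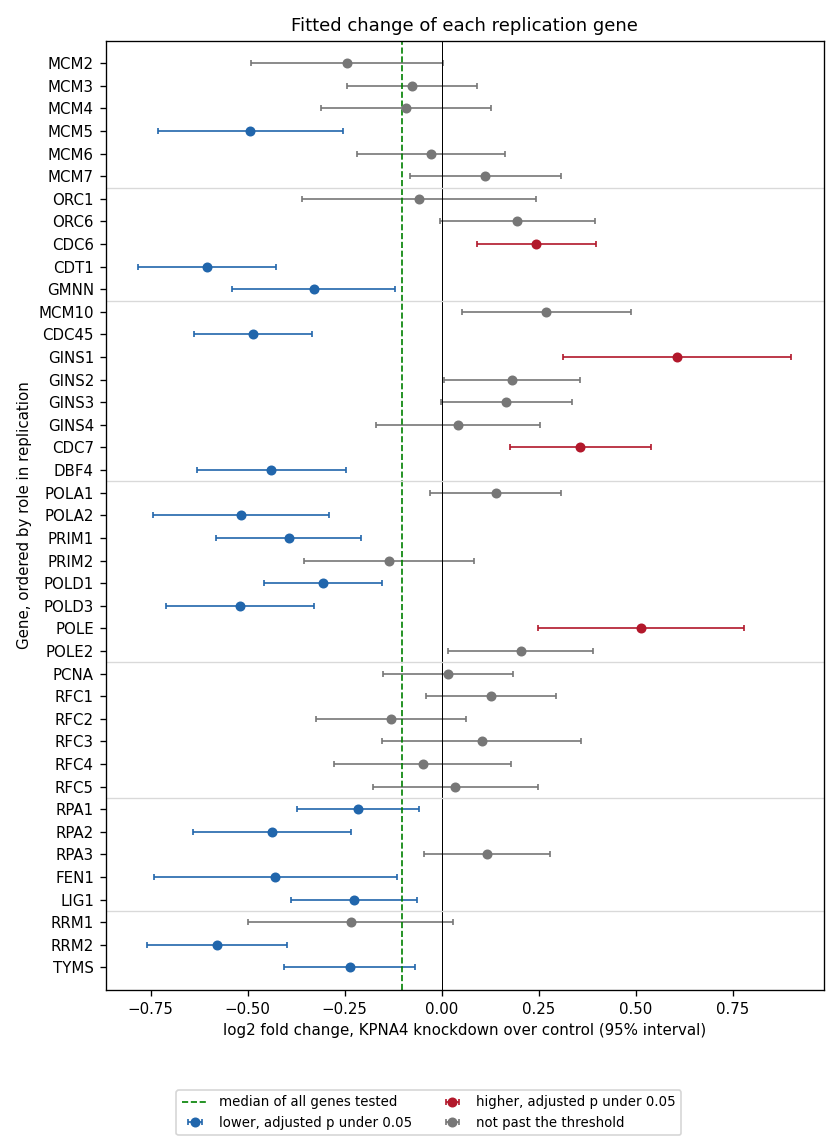
Log2 fold change, knockdown over control, of the 41 replication genes with 95% intervals from limma, grouped by role; the vertical lines mark 0 and the median of all genes, -0.10. Lower and higher calls stand side by side in helicase activation, 2 each, and the clamp and clamp loader holds 0 calls. Of all 19550 genes tested, 9811 were not called either. Without scaling the all-gene median moves to 0.40.

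Among primase and polymerase genes 4 of 8 were lower and 1 was higher, beside 29.5% and 20.3% of all genes. The counts were the same under quantile normalization (25% and 22.3% of all genes) and median scaling (32% and 19%). Without scaling 0 were lower and 4 higher, beside 5.36% and 57.6% of all genes. POLA2, the regulatory subunit of polymerase α, at 0.77 and 0.89 in controls and 0.25 and 0.38 in knockdown, fell by 30.1% (limma adjusted p = 0.0119). POLD3, an accessory subunit of polymerase δ, at 2.29 and 2.28 against 1.70 and 1.83, fell by 30.3% (limma adjusted p = 0.00797). The catalytic subunit of polymerase δ changed less, with POLD1 at 2.81 and 2.82 in controls and 2.51 and 2.50 in knockdown (-0.31, limma adjusted p = 0.0157). PRIM1, the catalytic subunit of primase, fell from 2.51 and 2.40 to 2.04 and 2.08 (-0.39, limma adjusted p = 0.0141). The catalytic subunit of polymerase α, POLA1, was not called, at 1.52 and 1.46 against 1.65 and 1.61. POLE, the catalytic subunit of polymerase ε, rose by 42.8%, from -2.84 and -2.63 to -2.19 and -2.26 (0.51, limma adjusted p = 0.0175), but only on 1 of its 2 probes, since the other gave 0.053 (adjusted p = 0.535 over probes). Its partner POLE2 did not pass (0.20, limma adjusted p = 0.0696). PRIM2, the large primase subunit, was not called by its brightest probe (-0.14), whereas its 3 probes ranged from -0.55, which passed over probes, to -0.062.

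The sliding clamp and its loader were the group without a call. Of all 19550 genes tested, 9811 were not called either. PCNA, the ring that tethers polymerases, was at 5.02 and 4.95 in controls and 4.99 and 5.01 in knockdown, with a log2 fold change of 0.016 and a 95% interval of -0.15 to 0.18 (limma adjusted p = 0.846). Its other probe gave 0.25 and was not called, and the mean over probes was 0.13. The loader subunits RFC1, RFC2, RFC3, RFC4 and RFC5 lay between -0.13 and 0.13. The median of the 6 genes was 0.025, which lay 0.13 above that of all genes. With quantile or median scaling 0 of them were called, while without scaling all 6 were called higher, beside 57.6% of all genes. The brighter PCNA probe was spotted repeatedly on each array, and the SD of its log2 signal over spots of 1 array was 0.051 to 0.093.

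Single-strand binding and Okazaki fragment joining had 4 of 5 genes lower and 0 higher, beside 29.5% and 20.3% of all genes. It had 2 lower and 1 higher under quantile normalization, beside 25% and 22.3% of all genes. Without scaling it had 0 lower and 1 higher, beside 5.36% and 57.6%. RPA2, the middle subunit of replication protein A, fell from 2.80 and 2.82 to 2.44 and 2.30 (-0.44, limma adjusted p = 0.0135), and its other probe gave -0.40. RPA1, the large subunit, fell by 13.9%, from 4.90 and 4.89 to 4.65 and 4.70 (limma adjusted p = 0.0403), while a second, dim probe gave 0.33 without passing, and the small subunit RPA3 was not called (0.12). The nuclease FEN1, which trims the flaps of Okazaki fragments, was at 1.44 on both control arrays and at 1.15 and 0.87 in knockdown (-0.43, limma adjusted p = 0.0403). LIG1, the ligase that seals them, fell from 1.91 and 1.97 to 1.72 and 1.71 (-0.23, limma adjusted p = 0.0388).

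Of the 3 genes of deoxynucleotide supply 2 were lower and 0 higher, beside 29.5% and 20.3% of all genes. RRM2, the small subunit of ribonucleotide reductase whose level sets S-phase activity, was at 2.39 and 2.48 in controls and 1.84 and 1.88 in knockdown and fell by 33.0% (log2 fold change -0.58, 95% interval -0.76 to -0.40, limma adjusted p = 0.00548). TYMS, which makes thymidylate, fell by 15.2%, from 5.26 and 5.20 to 5.02 and 4.96 (limma adjusted p = 0.0380). RRM1, the large reductase subunit, lay lower on both knockdown arrays, at 4.55 and 4.39 against 4.31 and 4.15, and did not pass (-0.23, limma adjusted p = 0.111). With quantile normalization 1 of the 3 genes was lower, beside 25% of all genes, and without scaling 0 were lower, beside 5.36%.

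In a fit over probes 18 of the 51 member probes were lower and 4 higher, beside 28.3% and 20.0% of all probes tested. Of the 9 genes with several probes, MCM5 and RPA2 passed on both of their probes, and MCM7, PCNA and RFC3 on neither. RPA1 and RFC3 had probes of opposite sign, of which only the bright RPA1 probe passed. The brightest probe of a gene stood for it in the counts, and the mean over probes turned RPA1 to 0.055.

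**Figure D4:**
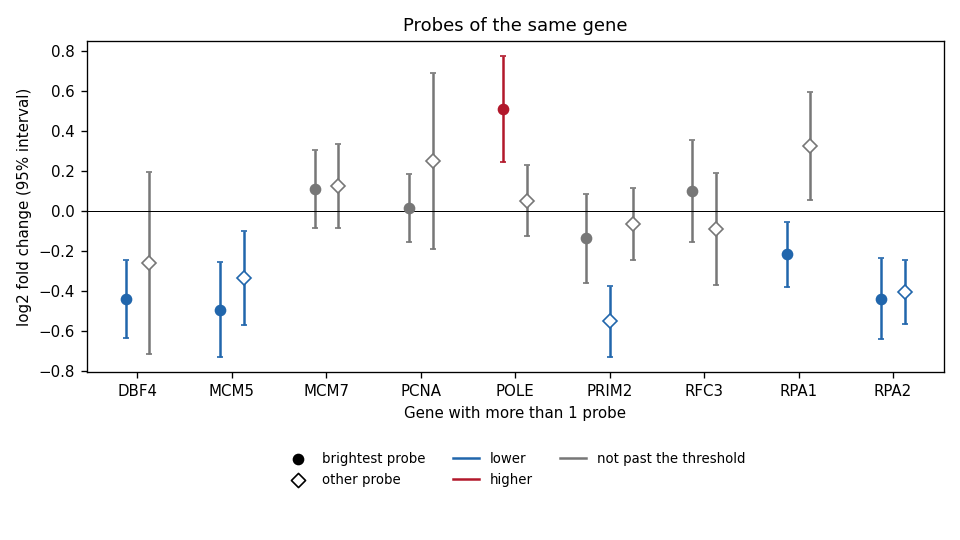
Log2 fold change with its 95% interval for each probe of the 9 replication genes that have several probes, knockdown over control, with the brightest probe of a gene marked. Probes of MCM5 and of RPA2 lie together below 0, while those of POLE (0.51 and 0.053) and of RPA1 (-0.22 and 0.33) lie apart.

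The neighborhood of these genes in the cell cycle was read from 6 further lists, whose counts stand beside 29.5% lower and 20.3% higher over all genes. These shares were 25% and 22.3% with quantile normalization and 5.36% and 57.6% without scaling. Among 28 other licensing and fork genes, 10 were lower and 2 higher, 8 and 2 with quantile normalization and 0 and 14 without scaling. The largest calls were RNASEH2A, a subunit of the nuclease that removes RNA from DNA (-0.56), DNA2, a flap nuclease (-0.55), and CHTF18, an alternative clamp loader subunit (-0.47). Of 10 genes of replication-coupled chromatin assembly 6 were lower and 0 higher, 3 and 0 with quantile normalization and 0 and 2 without scaling, and both knockdown arrays lay below both controls in all 10, as they did in 48.1% of all genes. Its largest calls were UHRF1 (-0.62), which recruits the maintenance methyltransferase, DNMT1 (-0.62), which is that enzyme, and HELLS (-0.55), a chromatin remodeler. Among 14 genes of nucleotide supply 5 were lower and 1 was higher, 2 and 1 with quantile normalization and 1 and 8 without scaling. DUT, which destroys dUTP, rose by 0.53 and the thymidine kinase TK1 fell by 0.48 on the log2 scale. DCK, a salvage kinase, fell by 1.07 in a fit that had only 1 knockdown array. Its spot on knockdown 1 was dropped for an outlier flag.

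Among 12 checkpoint genes 3 were lower and 2 higher, the same with quantile normalization, and 0 and 7 without scaling. RAD1, a subunit of the clamp that signals stalled forks, rose by 1.74 on the log2 scale (limma adjusted p = 0.000511), above any of the 41 members in size, while the kinase CHEK1 was at -0.55 and the fork protector TIPIN at -0.43. Of 25 genes of E2F and G1/S control 7 were lower and 2 higher, 7 and 3 with quantile normalization and 1 and 16 without scaling. The E-type cyclins CCNE1 (-1.01, limma adjusted p = 0.00152) and CCNE2 (-0.75) and the repressor E2F7 (-0.78) stood at the head. Of the other E2F genes, described after their values were seen, the activator E2F1 (-0.49) and the repressor E2F8 (-0.53) were lower, E2F5 was higher (0.48), and E2F2 (0.12), E2F3 (-0.21), E2F4 (0.42) and E2F6 (-0.029) were not called. Of 21 mitosis genes tested 7 were lower and 2 higher (33.3% and 9.52%, beside 29.5% and 20.3% of all genes). The counts were 3 and 4 with quantile normalization and 0 and 11 without scaling. The largest called changes were MKI67 (-0.60), AURKB (-0.56) and CDC20 (-0.36), which mark or drive dividing cells. The mitotic cyclin CCNB2, named after its value was seen, was among the higher genes (0.28). The medians of the 6 lists ran from -0.29 for chromatin assembly to -0.014 for E2F and G1/S control, beside -0.10 for all genes.

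**Figure D5:**
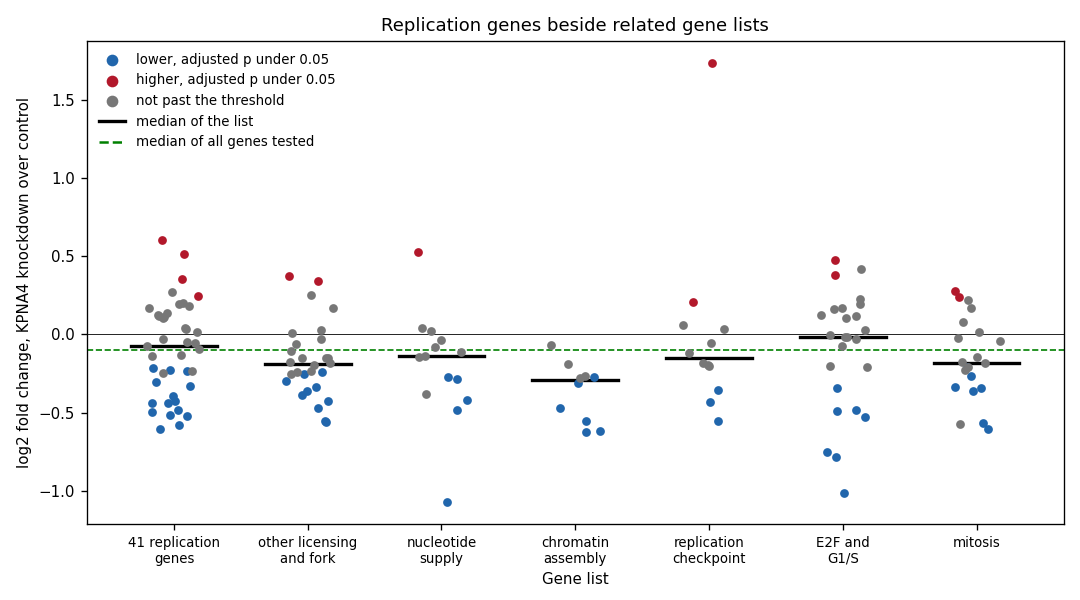
Log2 fold change, knockdown over control, of each gene in the replication set and in 6 related lists, with the median of each list and the median over all genes tested (-0.10). The chromatin assembly list lies wholly below 0 with 75th percentile scaling, and RAD1 at 1.74 and DCK at -1.07 stand farthest out, the latter with 1 knockdown array measured; without scaling the points move up together, the all-gene median to 0.40.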

How the data were processed

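Ca9-22 cultures were grouped by the sample labels into 2 controls and 2 KPNA4 knockdowns. The authors read each culture on its own array and deposited, per the labels, Agilent Feature Extraction 11.0.1.1 output, whose processed intensity is background-subtracted but not scaled between arrays. A deposited table of the same arrays holds the processed signal divided by each array's 75th percentile, a ratio, and served as an alternative.

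After control spots and outlier-flagged spots (333 to 355 of 43118 per array) were dropped, log2 processed signals were averaged over a probe's spots and reduced by the array's 75th percentile. A probe stayed if both arrays of either group had it well above background, and the brightest probe stood for a gene. Accessions were matched to a RefSeq table of GRCh38.p14, which named 25771 of 34127 probes. The arrays' grid refers to another assembly, so no probe position is given. The test was limma 3.58.1 under R 4.3.3, using lmFit and eBayes with Benjamini-Hochberg adjustment at 0.05, no covariate and 2 residual degrees of freedom per gene. The limma fit was also run on simulated data in which few genes changed and no scaling was applied. That run cannot bear on calls that depend on the scaling. No gene spot was saturated. Arrays give no read depth, and 2 arrays per group limit the precision. Each p-value sets the difference between groups against the spread between replicate cultures, with a gene's variance moderated by limma over all genes.

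Named genes were all members, KPNA4 and the 3 largest called changes of each list. Members and lists were written from general knowledge with earlier results of these data known. A further list of cell type markers is not reported here. Alternatives were quantile, median and no scaling, normexp with an offset of 50, the deposited table, no filter on dim probes or a stricter one, averaging a gene's probes, the trend and the robust option of limma, a block on the replicate number, and each array left out. A normexp fit without spots whose local background was above 100 was added after the data were seen.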

Additional observations from a re-analysis of the deposited data

How the results depend on the processing

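KPNA4 was lower under all 16 alternatives (log2 fold change -1.97 to -1.32). Its call was lost with normexp background correction (-1.96, limma adjusted p = 0.651), which called 0 of the replication genes and 0 of all genes in either direction. At an unadjusted p under 0.05 limma then had 2 replication genes lower and 0 higher and 521 and 641 of all genes, and the median of the replication genes was -0.28 beside 0.30 over all genes, 37 of the 41 lying below the latter. The array of KPNA4 knockdown 2 held 12 spots with a local background above 100 and the other arrays 0. A normexp fit without such spots was chosen after seeing the data. It gave 15 of the 41 replication genes lower and 9 higher, beside 46.6% (9117 genes) and 19.1% of all genes. Its median was -0.062 over the replication genes and -0.17 over all genes. Quantile normalization gave 9 higher, beside 22.3% of all genes, and a median of 0.028. With limma's trend 9 were higher, beside 22.1% of all genes, and the mean over probes gave a median of -0.058. Median scaling moved the median to -0.10. Without scaling 0 replication genes were lower (0 also at an unadjusted p under 0.05 in limma) and 24 higher, with a median of 0.43, and of all genes 1048 were lower and 11257 higher.

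Leaving out 1 array at a time gave 5 to 11 replication genes lower and 0 to 3 higher, 2521 to 4744 of all genes lower and 2148 to 3594 higher, and a median of -0.096 to -0.058. It also turned the sign of 6 genes that were not called, whose log2 fold changes then ranged from -0.082 to 0.027 for MCM6, -0.18 to 0.068 for ORC1, -0.025 to 0.11 for GINS4, -0.021 to 0.052 for PCNA, -0.13 to 0.029 for RFC4 and -0.041 to 0.11 for RFC5. The correlation across genes of the difference between control 1 and 2 with that between knockdown 1 and 2 was -0.03. Such a value cannot exclude an effect that replicates of the same number shared in some genes. The fit with the replicate number as a block called 10 replication genes lower and 3 higher, and 4637 and 3260 of all genes.

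Other signs turned as follows, on the log2 scale. With quantile normalization MCM3 was at 0.099, MCM4 at 0.028, MCM6 at 0.11 and RFC4 at 0.071. Median scaling put PCNA at -0.0074, the normexp fit without bright surroundings put MCM6 at 0.028, and the mean over probes put RPA1 at 0.055. Without scaling MCM2 was at 0.26, MCM3 at 0.43, MCM4 at 0.41, MCM5 at 0.0088, MCM6 at 0.47, ORC1 at 0.44, GMNN at 0.17, CDC45 at 0.017, DBF4 at 0.063, PRIM1 at 0.11, PRIM2 at 0.37, POLD1 at 0.20, RFC2 at 0.37, RFC4 at 0.45, RPA1 at 0.29, RPA2 at 0.065, FEN1 at 0.073, LIG1 at 0.28, RRM1 at 0.27 and TYMS at 0.27. With normexp MCM7 was at -0.11, ORC1 at 0.067, GINS2 at -0.031, GINS3 at -0.031, GINS4 at -0.18, POLA1 at -0.0088, PCNA at -0.22, RFC1 at -0.038, RFC3 at -0.11, RFC5 at -0.18 and RPA3 at -0.13. Of the values of single replication genes under an alternative, 501 kept their direction and side of the threshold, 44 changed sign, and of those that kept their sign 77 lost the call and 34 gained one.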
